A study of Mus musculus with 14 samples.

Results

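The unfolded protein response and the integrated stress response were followed through 34 genes, chosen by symbol and matched in both deposited tables, which list 56953 genes (BaCl2) and 14330 genes (glycerol). The genes were chosen with earlier results of these data known, so their shares beside those of all genes are description only. All 34 were found in both tables and all 34 passed the filter on low values. They were divided by role into 14 chaperones and folding enzymes of the endoplasmic reticulum (ER), 5 genes of ER-associated degradation, 5 sensors and transcription factors, and 10 targets of the transcription factor ATF4. RNA came from fibro-adipogenic progenitors (FAPs), stromal cells of skeletal muscle that can form fat and fibrous tissue, sorted by MACS (a magnetic sort) from the TA muscle of mice 3 days after an injury and used fresh for RNA extraction. The genotype label SMA, taken to stand for spinal muscular atrophy, was set against wild type (WT). The injury was made with BaCl2, which kills muscle fibres, in 3 SMA and 3 WT libraries, and with glycerol, an injury followed by more fat, in 4 SMA and 4 WT libraries. The labels give no SMA allele, transgene, age, sex or sort antibody, and they enter the injury as the batch, so a difference between injuries and one between batches cannot be told apart. The labels do not say that replicates were separate animals, and the p-values therefore reflect no more than the spread between these libraries.

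Proteins that enter the secretory pathway fold in the ER with the help of chaperones and enzymes that form disulfide bonds. When unfolded proteins accumulate there, the sensors IRE1, PERK and ATF6 act through the transcription factors XBP1, ATF4 and cleaved ATF6. ATF6 and XBP1 raise chaperones and degradation factors, and ATF4, which other kinases of the integrated stress response also raise, increases amino acid enzymes, carriers and regulators. FAPs of injured muscle secrete matrix proteins, which fold in the ER.

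Promoter stretches are shown because an element of each arm could be read in part of the chaperones or of the ATF4 targets. In RefSeq promoter windows (build GRCm38.p6, 250 bases before to 50 after the start), 31 of the 34 members were matched, all but Atf6 and the chaperones Hyou1 and Manf. On both strands, the ER stress element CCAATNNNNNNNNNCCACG stood in 0.119% of 32851 windows, and among the members in 7 of 12 matched chaperones (Calr, Canx, Creld2, Dnajc3, Hsp90b1, Hspa5 and Pdia6), in 2 of 5 degradation genes (Derl3 and Syvn1) and in 0 of 10 ATF4 targets. The matched chaperones without it were Dnajb9, Dnajb11, Pdia3, Pdia4 and Sdf2l1. A shorter element, ATTGGNCCACG, was found in 0.0365% of windows and in Dnajb11 and Herpud1. The letters TGATGNAA, the core of the element that ATF4 binds, stood in 3.97% of windows, in 5 of 10 ATF4 targets (Asns, Chac1, Nupr1, Slc7a11 and Trib3), in Herpud1 and in 0 of 12 chaperones. A match describes the letters and is not a measured site. The stretches below run 5′ to 3′ on the strand of the gene, with the matched letters in capitals (reverse complement where the match lies on the other strand). They are Hspa5 at chr2:34772013-34772055 (plus strand), Dnajc3 at chr14:118937815-118937857 (plus strand), Creld2 at chr15:88819508-88819550 (plus strand), Calr at chr8:84847063-84847105 (minus strand) and Syvn1 at chr19:6046520-6046562 (plus strand), followed by Asns at chr6:7693213-7693244 (minus strand) and Slc7a11 at chr3:50443641-50443672 (minus strand).
Hspa5: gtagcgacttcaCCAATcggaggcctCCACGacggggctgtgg
Dnajc3: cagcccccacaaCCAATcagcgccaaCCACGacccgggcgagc
Creld2: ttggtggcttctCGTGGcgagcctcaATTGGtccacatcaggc
Calr: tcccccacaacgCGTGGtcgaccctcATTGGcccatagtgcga
Syvn1: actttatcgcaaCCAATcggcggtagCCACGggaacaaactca
Asns: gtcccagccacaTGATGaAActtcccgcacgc
Slc7a11: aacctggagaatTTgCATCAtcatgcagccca

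Total counts per library ran from 97.7 M to 136 M after BaCl2 (M, mega), and the glycerol values, normalized by the authors, summed to 71.4 M to 76.6 M per library with a depth that is unknown. Smn1, which encodes the SMN protein that is short in SMA, was at 68.8% of the WT mean after BaCl2 and at 68.7% after glycerol, with no overlap between genotypes. The FAP marker Pdgfra stood at a mean of 868 CPM in SMA and 895 CPM in WT after BaCl2 (log2 fold change -0.04), CPM being counts per M of the TMM-scaled library, and at 65843 and 70522 normalized counts after glycerol. SMA 1 and SMA 2 after BaCl2 had stood apart in earlier results of these data, so results are also given without them. Marker lists of other cells moved with genotype. After BaCl2, 17 of 18 macrophage and monocyte markers were higher in SMA (edgeR, adjusted p under 0.05), with sums of 2445 to 3556 CPM against 1337 to 1846 CPM in WT, while the sums of 12 FAP markers were 41164 to 54198 CPM against 61341 to 67898 CPM, with 5 of 12 lower. Col1a1 (means of 20786 CPM in SMA and 29118 CPM in WT) and Col3a1 (21282 and 29944 CPM) made up most of the FAP sum. Col3a1, Ly6a, Lum, Dpt and Vcam1 passed. Col1a1 (edgeR adjusted p = 0.0606), Cd34 (-0.07), Dpp4 (0.00) and Pi16 (0.45) did not. After BaCl2 the sums of 7 neutrophil, 9 lymphocyte, 7 dendritic cell and 7 Schwann cell markers were also above WT in every SMA library. Of those tested, 2 of 5, 1 of 4, 1 of 5 and 4 of 7 passed as higher. Il7r made up most of the lymphocyte sum (means of 8.07 CPM in SMA and 3.67 CPM in WT). Itgax made up most of the dendritic cell sum (5.75 and 3.22 CPM). Cd79a (-0.26), Clec9a (-0.16), Ccr7 (-0.09) and S100b (-0.22) had negative log2 fold changes, and the other markers tested in these lists positive ones. The sums of 7 satellite cell markers were below WT. Des, the most abundant of them (means of 25.8 CPM in SMA and 43.3 CPM in WT, log2 fold change -0.74), was the 1 of 5 tested that passed, while the other 4 were positive (median of the list 0.27). After glycerol, 6 of 18 macrophage markers were higher, with overlapping sums (148956 to 363044 against 125243 to 162158 normalized counts), and the sums of the 5 listed neutrophil markers were above WT in every SMA library (1125 to 1762 against 599.6 to 1057). Csf3r, the most abundant of these 5, was the 1 that passed (means of 1069 and 457, log2 fold change 1.21, limma adjusted p = 0.0307). S100a8 (0.28), S100a9 (0.35) and Trem1 (0.50) were positive and Cxcr2 (-0.54) was negative. The sums of the 12 FAP markers overlapped after glycerol (3370112 to 4260672 in SMA against 3305147 to 4694725 in WT). Of these 12, 8 had positive log2 fold changes and 0 passed. Of 8 endothelial markers 3 were lower (6899 to 8942 against 10874 to 15936), and the sums of 7 pericyte markers were below WT in every SMA library. The sums of the 3 listed adipocyte markers were also below WT. Fabp4, the most abundant of them, was lower (means of 2205 and 3314, log2 fold change -0.58, limma adjusted p = 0.0317), while Adipoq (1.83) and Plin1 (1.96) had positive log2 fold changes and did not pass. The T cell genes Cd3d and Cd3g were at 0 in all BaCl2 libraries.

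After BaCl2, 5 ER chaperones were higher in SMA FAPs: Sdf2l1, Creld2, Hyou1, Manf and Dnajc3. These are 5 of 34 members, or 5 of 14 chaperones, against 2.73% of all 20119 genes tested that were higher (edgeR quasi-likelihood test with Benjamini-Hochberg adjustment, adjusted p under 0.05). None of the 34 was lower, against 1.56% of all genes, while DESeq2 gave 9 higher and 0 lower after adjustment. At an unadjusted p under 0.05 edgeR gave 12 of 34 higher and 0 lower, against 9.67% and 9.58% of all genes. In bulk samples, a change in the share of a cell type and a change in RNA per cell cannot be told apart.

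Sdf2l1 (ENSMUSG00000022769.10), a partner of the chaperone BiP, had the largest change of the 34. Its level was 58.5, 45.5 and 38.7 CPM in the SMA libraries and 21.3, 28.7 and 22.4 CPM in the WT libraries. Every SMA library lay above every WT library, and the log2 fold change was 0.98 (SE 0.15, edgeR adjusted p = 0.00983). Creld2 (ENSMUSG00000023272.5), a disulfide isomerase of the ER, stood at 87.9, 74.1 and 65.6 CPM in the SMA libraries and 45.0, 55.9 and 51.3 CPM in the WT libraries. The groups did not overlap, and the log2 fold change was 0.58 (SE 0.11, edgeR adjusted p = 0.0195). Hyou1 (ENSMUSG00000032115.15), a large ER chaperone that exchanges the nucleotide of BiP, stood at 365, 314 and 287 CPM in the SMA libraries and 197, 244 and 218 CPM in the WT libraries, a log2 fold change of 0.55 (SE 0.10, edgeR adjusted p = 0.0165). Again no SMA library reached down to WT.

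Manf (ENSMUSG00000032575.17), an ER protein that is secreted under stress, was measured at 195, 166 and 157 CPM in the SMA libraries and 125, 143 and 125 CPM in the WT libraries. The log2 fold change was 0.40 (SE 0.09, edgeR adjusted p = 0.0347) and the groups did not overlap. Dnajc3 (ENSMUSG00000022136.9), a J-domain co-chaperone that also inhibits PERK, was measured at 280.4, 257 and 255 CPM in the SMA libraries and 207, 228 and 214 CPM in the WT libraries. Its log2 fold change was 0.29 (SE 0.06, edgeR adjusted p = 0.0342), the smallest of the 5, again without overlap. In each of the 5 genes SMA 1 was the highest library, and SMA 1 also held the highest macrophage marker sum (3556 CPM) and the lowest FAP marker sum (41164 CPM, mostly Col1a1 and Col3a1). The part of these cells in the result was not tested. The plasma cell markers, of cells rich in ER, had 4 of 4 tested with positive log2 fold changes after BaCl2, Prdm1 (0.48, edgeR adjusted p = 0.0452), Irf4 (0.35), Sdc1 (0.02) and the member Xbp1 (0.00). Of these Prdm1 passed. Without Xbp1 the list summed to 137 to 158 CPM in SMA and 139 to 152 CPM in WT. Sdc1 made up most of this sum (means of 137 CPM in SMA and 136 CPM in WT), so it says little of the other markers. Jchain had a mean of 0.0419 CPM in SMA and 0.0453 CPM in WT.

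**Figure D1:**
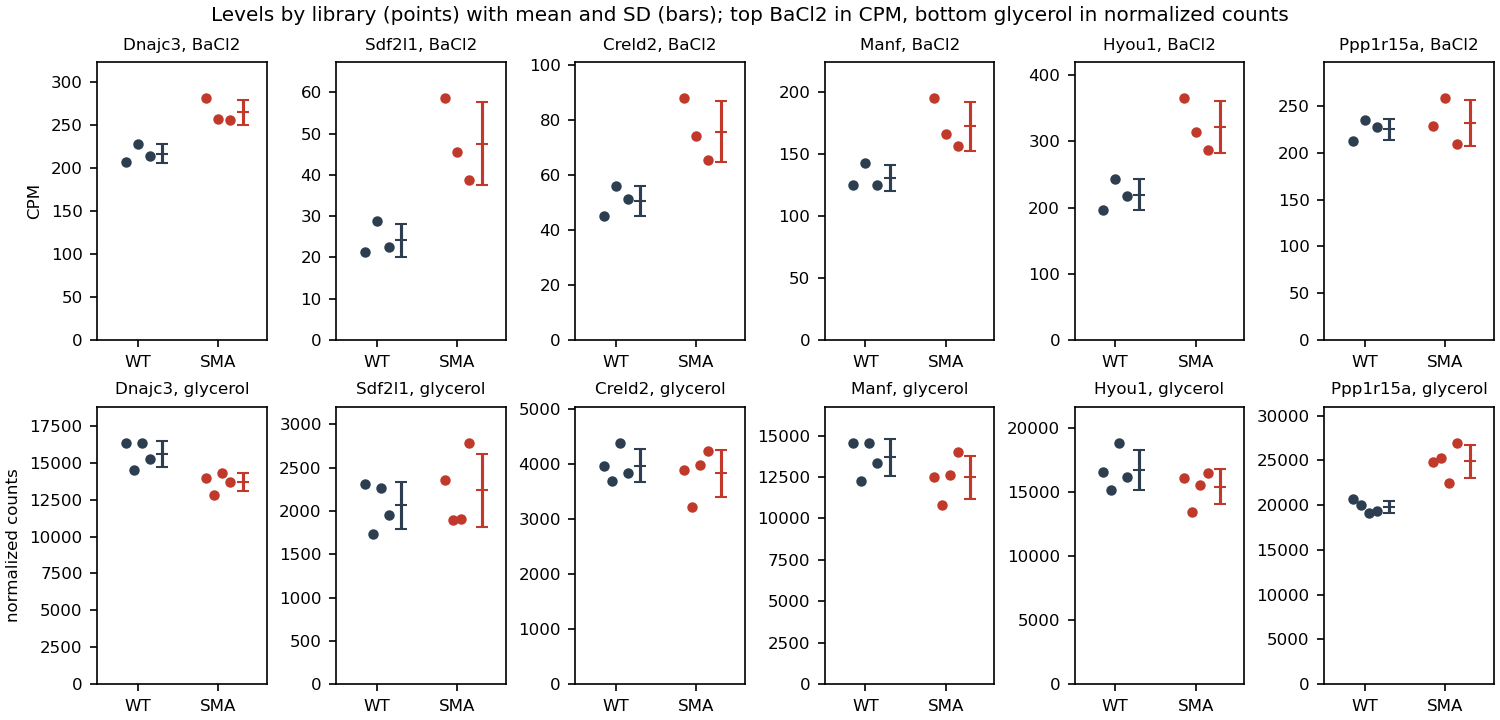
Levels of the 6 members that passed in an injury, by library (points) with mean and SD (bars); the upper row shows CPM after BaCl2 and the lower row normalized counts after glycerol, each axis from 0. Dnajc3, Sdf2l1, Creld2, Manf and Hyou1 lie higher in all 3 SMA libraries after BaCl2, and Ppp1r15a in all 4 SMA libraries after glycerol.

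The remaining 9 chaperones did not pass after BaCl2. Hspa5, which encodes BiP, the main chaperone and sensor partner of the ER, stood at 2860.2, 2568 and 2370.3 CPM in the SMA libraries and 1969, 2295 and 2027 CPM in the WT libraries. No SMA library overlapped WT, but the log2 fold change of 0.31 (SE 0.09) had an edgeR adjusted p of 0.0743. The J-domain co-chaperone Dnajb11 also had groups apart, at 180.4, 155 and 142 CPM in the SMA libraries and 134, 137 and 134 CPM in the WT libraries (log2 fold change 0.24, edgeR adjusted p = 0.145). The lectin chaperones Calr and Canx had log2 fold changes of 0.12 and 0.14, and the HSP90 of the ER, Hsp90b1, one of 0.09, all with overlapping groups. The disulfide isomerases Pdia3, Pdia4 and Pdia6 had log2 fold changes of -0.04, 0.04 and -0.01, and the co-chaperone Dnajb9 one of 0.01. Over the 14 chaperones 12 log2 fold changes were positive, with a median of 0.19 against -0.003 over all genes tested.

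Among the genes of ER-associated degradation, which return misfolded proteins to the cytosol, 0 of 5 passed in edgeR after BaCl2. All 5 log2 fold changes were positive (median 0.23), against 49.4% of all genes. At an unadjusted p under 0.05, 2 of the 5 were higher, against 9.67% of all genes. Sel1l, the scaffold of the HRD1 ubiquitin ligase, stood at 213, 202 and 205 CPM in the SMA libraries and 162, 182 and 179 CPM in the WT libraries (0.24, edgeR adjusted p = 0.059). Edem1, which selects mannose-trimmed glycoproteins, stood at 206, 188 and 175 CPM in the SMA libraries and 161, 156 and 158 CPM in the WT libraries (0.26, edgeR adjusted p = 0.0613). In both genes every SMA library was above every WT library. Syvn1, the HRD1 ligase itself, stood at 93.2, 86.4 and 76.3 CPM in the SMA libraries and 65.1, 82.4 and 74.7 CPM in the WT libraries (0.20, edgeR adjusted p = 0.286), with overlap. Herpud1, another subunit of that complex, had a log2 fold change of 0.17, and Derl3, at 36 to 82 counts per library, one of 0.23 with an SE of 0.36.

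The sensors and transcription factors showed 0 of 5 passing in edgeR after BaCl2, with 2 higher at an unadjusted p under 0.05, against 9.67% of all genes. These were Ern1, which encodes IRE1 (56.1 to 65.7 CPM in SMA against 49.1 to 54.9 CPM in WT, log2 fold change 0.25, edgeR adjusted p = 0.105), and Atf6 (121 to 124 CPM in SMA against 98.3 to 113 CPM in WT, log2 fold change 0.18, edgeR adjusted p = 0.17). Both had SMA above WT without overlap. Eif2ak3, which encodes PERK, had a log2 fold change of -0.05, Xbp1 one of 0.00 and Atf4 one of -0.01, each with an SE of 0.06 to 0.07. Gene counts measure neither the splicing of Xbp1 mRNA nor the translation of Atf4 mRNA, by which these factors are known to be controlled.

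Of the 10 ATF4 targets, 0 passed after BaCl2 in edgeR and 0 in DESeq2. In edgeR 1 (Slc7a11) was higher at an unadjusted p under 0.05, against 9.67% of all genes. Slc7a11, the cystine carrier, stood at 22.6, 20.2 and 9.96 CPM in the SMA libraries and 11.8, 9.55 and 11.0 CPM in the WT libraries. SMA 1 and SMA 2 were about double the WT level (log2 fold change 0.71, SE 0.24, edgeR adjusted p = 0.141) and SMA 3 lay within the WT range. The amino acid enzymes Asns (asparagine synthetase), Psat1 and Phgdh (serine synthesis) had log2 fold changes of 0.16, 0.10 and 0.01. The regulators Ddit3 (CHOP), Atf5, Trib3 and Nupr1 had -0.15, -0.13, 0.21 and 0.02, and Ppp1r15a, the stress-induced phosphatase subunit GADD34, had 0.04. Chac1, which degrades glutathione, had -0.49 with an SE of 0.30 at 58 to 121 counts per library. The median of the 10 was 0.03, and all 10 had overlapping groups.

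Without overlap, 11 of 34 members had every SMA library above every WT library after BaCl2, against 12.2% of all genes. They were 7 of 14 chaperones, 2 of 5 degradation genes, 2 of 5 sensors and transcription factors and 0 of 10 ATF4 targets. The exact permutation test of a single gene cannot go below a two-sided p of 0.1 with 3 libraries against 3, the value these 11 genes gave. In the authors' deposited table the same 11 members were higher after BaCl2 (7.74% of all genes with an adjusted p were) and none was lower (6.04%), with no adjusted p for Derl3 and Chac1. The number of members higher fell from 5 to 3 without SMA 1, 1 without SMA 2, 2 without WT 1, 2 without WT 2 and 0 without WT 3 (edgeR, where 12 members were still higher at an unadjusted p under 0.05), and was 10 without SMA 3. Over all genes, the number higher went from 549 to 394, 106, 474, 127 and 34 in the same order, and was 902 without SMA 3. Sdf2l1 kept its call in 5 of these 6 fits and Hyou1 in 4, Creld2 in 2, and Manf and Dnajc3 in 1. Without SMA 1 and SMA 2 together, SMA 3 was the only SMA library, assumed to vary as the WT libraries do. The log2 fold changes of the 5 genes were then 0.68 for Sdf2l1 (edgeR adjusted p = 0.0796), 0.38 for Hyou1, 0.37 for Creld2, 0.26 for Manf and 0.23 for Dnajc3, and the median of the chaperones was 0.07. No member passed in that edgeR fit, with 6 higher and 1 lower at an unadjusted p under 0.05.

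**Figure D2:**
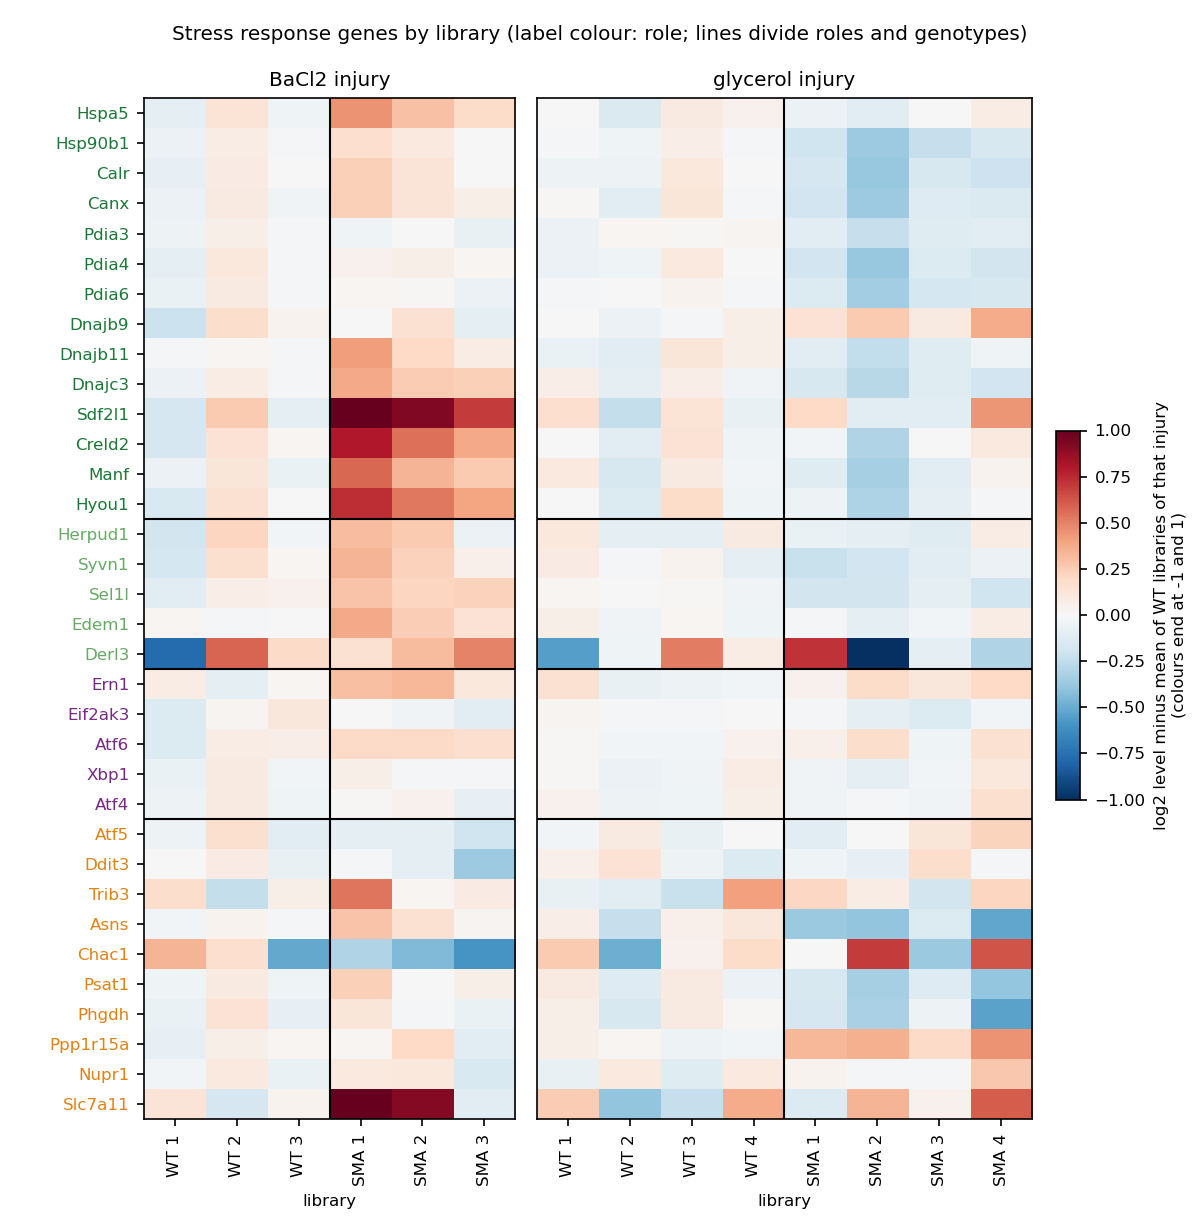
Level of each of the 34 members in each of the 14 libraries, as log2 difference from the mean of the WT libraries of the same injury (colour, ending at -1 and 1), with rows grouped by role. The chaperone block is mostly red in the 3 SMA libraries after BaCl2 (mean of 0.38, 0.26 and 0.15 over the 14 genes). The WT means there are -0.10, 0.11 and -0.02. After glycerol the block is mostly blue in the 4 SMA libraries (-0.08, -0.25, -0.10 and -0.01). The WT means there are 0.01, -0.09, 0.09 and -0.01, so the genotypes overlap in this mean.

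After glycerol 1 member passed, an ATF4 target, and no chaperone did. Ppp1r15a (ENSMUSG00000040435), which dephosphorylates eIF2alpha together with protein phosphatase 1, stood at 24863, 25256, 22528 and 26982 normalized counts in the SMA libraries and 20639, 20002, 19126 and 19381 normalized counts in the WT libraries. All 4 SMA libraries were above all 4 WT libraries (log2 fold change 0.33, SE 0.06, limma adjusted p = 0.0321), and the two-sided exact permutation p was 0.0286, the smallest that 4 against 4 allows. This is 1 of 34 members, against 1.70% of 14330 genes that were higher. None of the 34 was lower by limma (1.17% of all genes were), and at an unadjusted p under 0.05 limma gave 2 members higher and 12 lower, against 12.3% and 11.0% of all genes. The call of Ppp1r15a held in 1 of 8 fits that each left out a library (without SMA 3), with limma adjusted p of 0.0633 to 0.108 in the other 7. Over all genes, those 7 fits called 0 to 82 genes, against 411 with all libraries and 1645 without SMA 3.

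Ppp1r15a is also an immediate early gene of tissue dissociation, and that list moved with it. The 15 dissociation and immediate early genes summed to 1096959 to 1147481 normalized counts in SMA and 990194 to 1040436 in WT after glycerol, with 14 of 15 positive and 2 passing, Egr1 (0.59, limma adjusted p = 0.0299) and Dusp1 (0.34, limma adjusted p = 0.0317). After BaCl2 the list overlapped between genotypes (11803 to 14604 CPM against 13977 to 14278 CPM) and Ppp1r15a stood at 229, 258 and 209 CPM in the SMA libraries and 213, 235 and 228 CPM in the WT libraries, also with overlap. The part of this list in the result was not tested.

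Of the 14 chaperones 12 had negative log2 fold changes after glycerol (median -0.14, against -0.000 over all genes), and 0 passed in limma. At an unadjusted p under 0.05, 1 was higher and 7 were lower, against 12.3% and 11.0% of all genes. Hsp90b1 stood at 149309, 132683, 145503 and 153218 normalized counts in the SMA libraries and 169238, 166066, 179024 and 170063 normalized counts in the WT libraries. The 4 SMA libraries were all below WT (-0.24, SE 0.06, limma adjusted p = 0.0634). Calr stood at 134030.1, 115810.2, 134549 and 130728 normalized counts in the SMA libraries and 145874, 145380.5, 161817 and 150416 normalized counts in the WT libraries, again with SMA below WT (-0.23, SE 0.07, limma adjusted p = 0.0841). Canx stood at 53077, 47068, 55357 and 54665 normalized counts in the SMA libraries and 61093, 55983, 65889 and 59677 normalized counts in the WT libraries, with SMA below WT throughout (-0.21, SE 0.07, limma adjusted p = 0.118). SMA 2 was the lowest library in each of these 3 genes.

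The isomerases showed the same separation without passing. Pdia4 stood at 28557, 25180.2, 29784 and 28736 normalized counts in the SMA libraries and 31354, 31702, 35005 and 32736 normalized counts in the WT libraries (-0.22, limma adjusted p = 0.0817). Pdia6 had a log2 fold change of -0.20 (limma adjusted p = 0.0743) and Pdia3 one of -0.15 (limma adjusted p = 0.117), both with SMA below WT throughout. Dnajc3, higher in SMA after BaCl2, stood at 13963, 12832, 14322 and 13676 normalized counts in the SMA libraries and 16363, 14533, 16310.4 and 15229 normalized counts in the WT libraries after glycerol, with every SMA library below every WT library (-0.19, SE 0.05, limma adjusted p = 0.0905).

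The other 4 chaperones that were higher after BaCl2 had overlapping groups after glycerol. Sdf2l1 stood at 2354, 1892, 1911 and 2787 normalized counts in the SMA libraries and 2306, 1739, 2259 and 1952 normalized counts in the WT libraries (0.11, SE 0.14). Creld2 stood at 3879.5, 3221, 3980.2 and 4227 normalized counts in the SMA libraries and 3967, 3687, 4382 and 3837 normalized counts in the WT libraries (-0.06, SE 0.09). Hyou1 stood at 16091, 13447, 15567 and 16521 normalized counts in the SMA libraries and 16608, 15173, 18861 and 16164 normalized counts in the WT libraries (-0.12, SE 0.08). None of these 3 separated the genotypes, and SMA 2 held the lowest SMA value in each. Manf stood at 12519, 10829.7, 12645 and 13984 normalized counts in the SMA libraries and 14572, 12245, 14541 and 13377 normalized counts in the WT libraries (-0.13, SE 0.08). Its groups overlapped, and so did those of Dnajb11 and Hspa5, which had not passed after BaCl2. Dnajb11 stood at 10069, 9139, 9969 and 10537 normalized counts in the SMA libraries and 10375, 10025, 11797 and 11317 normalized counts in the WT libraries (-0.13, SE 0.07). Hspa5 stood at 149337, 144745, 155767 and 163362 normalized counts in the SMA libraries and 155798, 140914, 165493 and 160252 normalized counts in the WT libraries (-0.02, SE 0.07). Dnajb9, a BiP co-chaperone known as an XBP1 target, was the chaperone with SMA above WT throughout (12453 to 15128 against 11252 to 12210.3 normalized counts, log2 fold change 0.22, limma adjusted p = 0.0919).

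The 5 degradation genes were all negative after glycerol (median -0.14), with 0 passing in limma. At an unadjusted p under 0.05, 2 were lower, against 11.0% of all genes. Sel1l stood at 12140.4, 12127, 12960.0 and 12007 normalized counts in the SMA libraries and 13932, 13756, 13901 and 13433 normalized counts in the WT libraries, with SMA below WT throughout (-0.16, SE 0.04, limma adjusted p = 0.0663). Syvn1 stood at 3808, 3878, 4117 and 4259.6 normalized counts in the SMA libraries and 4698, 4368, 4541 and 4152 normalized counts in the WT libraries (-0.14, limma adjusted p = 0.171). Edem1 stood at 12508, 11852, 12418 and 13314 normalized counts in the SMA libraries and 13195, 12375, 12810.1 and 12258 normalized counts in the WT libraries (-0.02, SE 0.05). Both genes had overlapping groups. Herpud1 had -0.05 and Derl3, listed at 8.69 to 31.5 normalized counts, had -0.17 with an SE of 0.41. The sensors and transcription factors had a median of 0.02, with Ern1 at 0.13, Atf6 at 0.08, Atf4 at 0.02, Xbp1 at -0.02 and Eif2ak3 at -0.07, each with overlapping groups.

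Among the ATF4 targets, the 3 amino acid enzymes had the negative log2 fold changes after glycerol. Asns stood at 1846, 1815, 2171 and 1663 normalized counts in the SMA libraries and 2507, 2037, 2471 and 2578 normalized counts in the WT libraries (-0.36, SE 0.10, limma adjusted p = 0.0828), where SMA 3 overlapped WT 2. Psat1 stood at 5309.8, 4707, 5421 and 4521 normalized counts in the SMA libraries and 6318, 5425, 6320.4 and 5689 normalized counts in the WT libraries, with all SMA libraries below WT (-0.25, SE 0.08, limma adjusted p = 0.102). Phgdh had -0.27 (limma adjusted p = 0.162). The other 7 had positive log2 fold changes, Ppp1r15a with 0.33, Chac1 with 0.24, Slc7a11 with 0.21, Trib3 with 0.08, Nupr1 with 0.07, Atf5 with 0.06 and Ddit3 with 0.01, and of these only Ppp1r15a passed.

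In all, 9 of 34 members had SMA below WT without overlap after glycerol, against 7.54% of all genes, and 2 had SMA above WT, against 6.59%. The 9 were Hsp90b1, Calr, Canx, Pdia3, Pdia4, Pdia6, Dnajc3, Sel1l and Psat1, and each gave a two-sided exact permutation p of 0.0286. The authors' deposited table gives 9 members as lower after glycerol (5.21% of all genes are), namely Hsp90b1, Calr, Pdia3, Pdia4, Pdia6, Dnajc3, Sel1l, Asns and Psat1, and 2 as higher (7.28%), Dnajb9 and Ppp1r15a. The limma count of members lower rose from 0 to 6 without SMA 3 and stayed at 0 without any other single library. Members higher were 2 without SMA 3 and 0 without any of the other 7 libraries. Over all genes, 564 were lower and 1081 higher without SMA 3, against 168 and 243 with all libraries. The other 7 fits gave 0 to 20 genes lower and 0 to 62 higher.

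**Figure D3:**
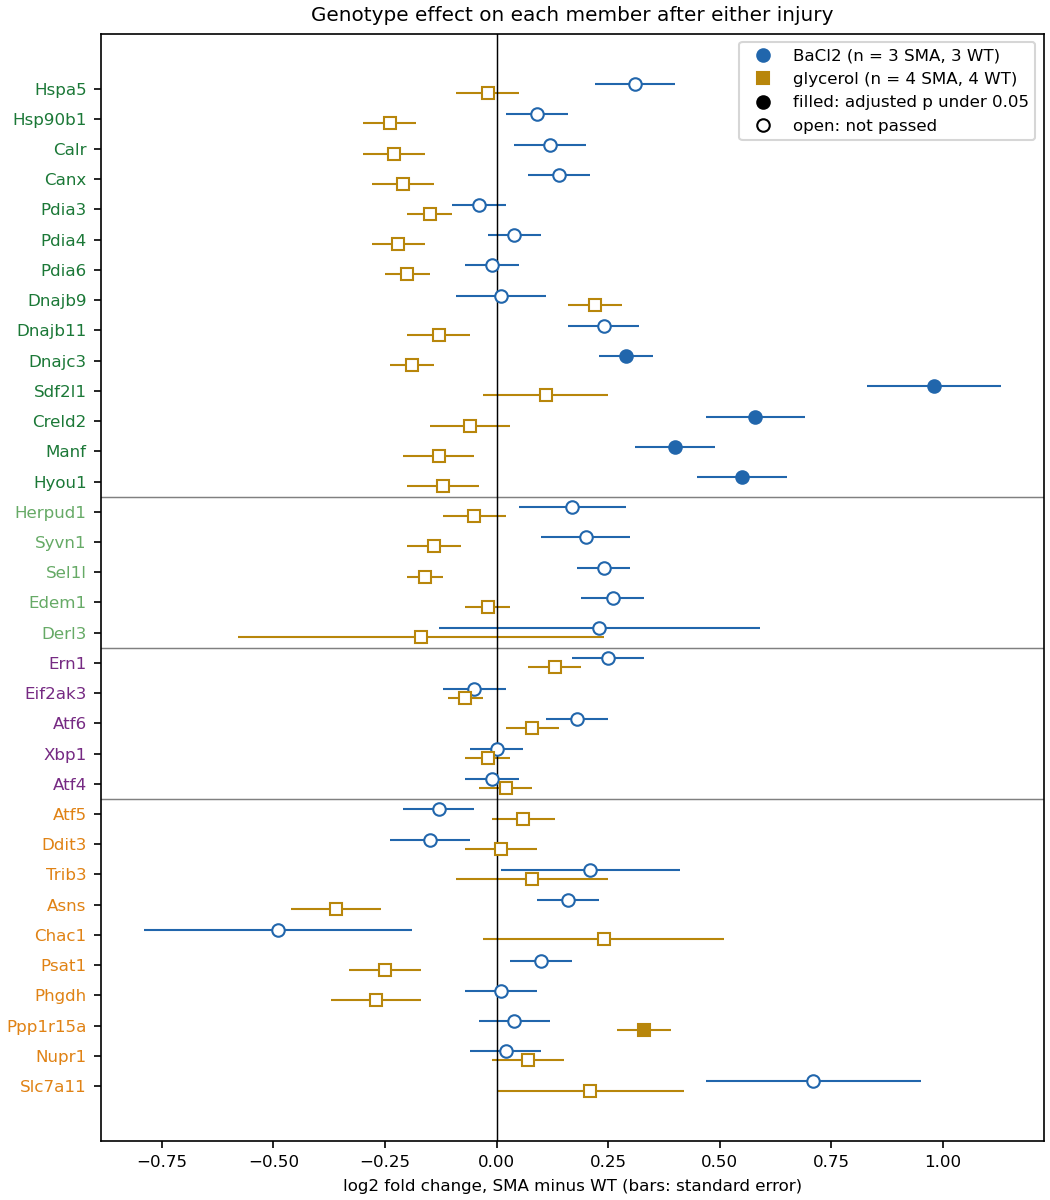
Log2 fold change of SMA against WT for each member after BaCl2 (blue circles, n = 3 and 3) and after glycerol (gold squares, n = 4 and 4), with standard errors; filled symbols passed at an adjusted p under 0.05. For 13 of 14 chaperones the gold square lies left of the blue circle, Dnajb9 being the exception, whereas the sensors and transcription factors lie between -0.07 and 0.25 in both injuries.

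The genotype effect differed between the injuries for 11 of 14 chaperones, but injury and batch cannot be told apart. The 2 injuries were also fitted on unlike values, read counts after BaCl2 and normalized counts after glycerol. The difference was tested for each gene as glycerol minus BaCl2 (a z test on the edgeR and limma estimates of 13960 genes fitted in both). The z test took its p-values from a normal curve, which makes no allowance for the few libraries behind each SE. It is therefore more lenient than the edgeR and limma tests within an injury. The difference was lower for 16 of 34 members, against 5.00% of all genes, and higher for 1, against 5.53%. Of the 14 chaperones 11 were lower, of the 5 degradation genes 3, of the 5 sensors and transcription factors 0, and of the 10 ATF4 targets 2, with 1 higher. At an unadjusted p under 0.05 the z test gave 18 members lower and 1 higher, against 11.5% and 13.1% of all genes. Of the 22 other ER folding factors 4 were lower and 1 higher, with a median difference of -0.04 against -0.35 for the chaperones, and of all 128 other pathway genes 25 were lower and 4 higher.

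Among the chaperones that passed, the largest differences were those of Sdf2l1 (-0.87, SE 0.21, adjusted p = 0.00118 by the z test on the edgeR and limma fits), Hyou1 (-0.67, SE 0.13, adjusted p = 4.83e-05) and Creld2 (-0.64, SE 0.14, adjusted p = 0.000562). Manf followed with -0.53 and Dnajc3 with -0.47 (adjusted p = 7.66e-06, the smallest of the 34). Dnajb11 (-0.37), Calr (-0.35), Canx (-0.35), Hsp90b1 (-0.33), Hspa5 (-0.33) and Pdia4 (-0.26) also passed in this more lenient test, although none of these 6 passed within an injury. Pdia6 (-0.19, adjusted p = 0.11), Pdia3 (-0.11) and Dnajb9 (0.20) did not pass. In the degradation genes the difference passed for Sel1l (-0.40, adjusted p = 1.98e-05), Syvn1 (-0.35) and Edem1 (-0.27), and not for Herpud1 (-0.22) or Derl3 (-0.40, SE 0.55).

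Among the sensors and transcription factors the differences lay between -0.11 (Ern1, SE 0.10) and 0.03 (Atf4, SE 0.08), and none passed in the z test, adjusted or unadjusted. Of the ATF4 targets, Asns (-0.52, SE 0.12, adjusted p = 0.00162) and Psat1 (-0.35, SE 0.11, adjusted p = 0.0163) were lower and Ppp1r15a (0.29, SE 0.10, adjusted p = 0.039) was higher. The dissociation and immediate early genes moved the same way, with 5 of 15 higher in the difference, 14 of 15 positive and a median of 0.26, and Dusp1 (0.53), Egr1 (0.65) and Zfp36 (0.60) first by p. The part of this list in the difference of Ppp1r15a was not tested. After BaCl2 Asns had stood at 44.3, 40.3 and 36.9 CPM in the SMA libraries and 35.6, 37.2 and 36.0 CPM in the WT libraries. Psat1 had stood at 102, 86.5 and 89.8 CPM in the SMA libraries and 83.6, 91.7 and 83.6 CPM in the WT libraries. In both genes the SMA mean was above the WT mean there, with overlapping groups. Chac1 (0.72, SE 0.40) and Slc7a11 (-0.50, SE 0.32) had wide errors and did not pass.

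Leaving out each of the 14 libraries in turn, 11 to 18 members were lower in the difference and 9 to 12 of them were chaperones. In all 14 of these fits 11 members kept their call, namely Hsp90b1, Calr, Canx, Dnajb11, Dnajc3, Sdf2l1, Creld2, Manf, Hyou1, Sel1l and Asns. The call held in 11 of 14 for Edem1, 9 for Psat1, 7 for Pdia4 and Syvn1, 6 for Hspa5 and 5 for Ppp1r15a. Without SMA 1 and SMA 2 of the BaCl2 libraries together, which leaves 1 SMA library there, 3 members were lower, Dnajc3 (-0.42), Hyou1 (-0.50) and Sel1l (-0.39). The median difference of the chaperones was -0.24 in place of -0.35, and the chaperones that no longer passed included Sdf2l1 (-0.58, adjusted p = 0.0742 by the z test), Creld2 (-0.42) and Manf (-0.39). The 18 macrophage markers had a median difference of 0.02 with 0 passing in the z test (2 lower at an unadjusted p under 0.05, against 11.5% of all genes). The 12 FAP markers had one of 0.41 with 5 higher, and the 8 endothelial markers one of -1.48 with 7 lower. The 7 pericyte markers had one of -0.86 with 3 lower, and the 5 neutrophil markers tested one of -1.29 with 1 lower. The 6 Schwann cell markers tested had one of -0.65 with 1 lower and 1 higher. Their part in the result was not tested.

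Other genes of the pathway, 131 in 9 lists, were counted beside the members. After BaCl2, 2 of 129 tested were higher (1.55%, against 2.73% of all genes) and 4 lower (3.1%, against 1.56%) in edgeR, all 6 of them folding or degradation factors. The oxidase Ero1b (0.88, edgeR adjusted p = 0.00416) and Txndc11 (0.28) were higher, and the isomerase Pdia5 (-0.39) and the lectin Erlec1 (-0.34) were lower. The 22 other folding factors had a median of -0.10, with 14 of 22 negative. After glycerol 0 of 128 were higher and 13 lower (10.2%, against 1.17% of all genes) in limma. At an unadjusted p under 0.05, 3 were higher and 45 lower, against 12.3% and 11.0% of all genes. The 13 included the folding factors Fkbp11 (-0.46, limma adjusted p = 0.0273), Uggt1 (-0.26) and Fkbp14 (-0.26), the degradation factors Nploc4 (-0.21) and Edem3 (-0.18), and Creb3l1 (-0.44), an ER-bound transcription factor of secretory cells. In the difference the first folding factors by p were Txndc11 (-0.39), Fkbp11 (-0.35) and Uggt1 (-0.29). Of the 18 other degradation factors 3 were lower and 2 higher, with Nploc4 (-0.42), Edem3 (-0.26) and Erlec1 (0.30) first, and Creb3l1 was lower (-0.38).

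Genes of translocation into the ER and of transport out of it were negative for 26 of 27 after glycerol (median -0.18). Of these 5 were lower, among them the COPII coat subunit Sec24d (-0.23, limma adjusted p = 0.0299), the translocon subunit Ssr1 (-0.35) and the cargo receptor Lman1 (-0.30). After BaCl2 the same list had 11 of 27 positive with a median of -0.03, and 0 passed in edgeR. At an unadjusted p under 0.05, 4 were higher and 9 lower, against 9.67% and 9.58% of all genes. In the difference 5 of 27 were lower, with Spcs3 (-0.40), Srprb (-0.34) and Ssr1 (-0.31) first by p.

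The other ATF4 targets, 45 genes, had 0 passing after BaCl2 in edgeR (12 higher and 5 lower at an unadjusted p under 0.05, against 9.67% and 9.58% of all genes) and 2 lower after glycerol in limma, Aldh1l2 (-0.35) and Aldh18a1 (-0.22), a mitochondrial folate enzyme and an enzyme of proline synthesis. The 13 genes of the tRNA synthetase list, which also holds the tRNA exporter Xpot, were all positive after BaCl2 (median 0.09) and all negative after glycerol (median -0.21). None passed in edgeR or limma, with 4 higher after BaCl2 and 7 lower after glycerol at an unadjusted p under 0.05, against 9.67% and 11.0% of all genes. In the difference 7 were lower, led by Tars (-0.37, adjusted p = 0.00196 by the z test), Eprs (-0.29) and Wars (-0.38). Of the 13 amino acid and one-carbon enzymes 4 were lower in the difference, with Mthfd1l (-0.53), Shmt2 (-0.41) and Bcat1 (-0.58) first. Slc7a5 (-0.56), the large neutral amino acid carrier, was the 1 of 8 carriers that passed there. Of the 11 regulators 0 passed in the difference by the z test (2 higher at an unadjusted p under 0.05, against 13.1% of all genes). In the list of eIF2alpha kinases, phosphatase and eIF2B, Eif2ak2, which encodes the kinase PKR, was higher (0.57).

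**Figure D4:**
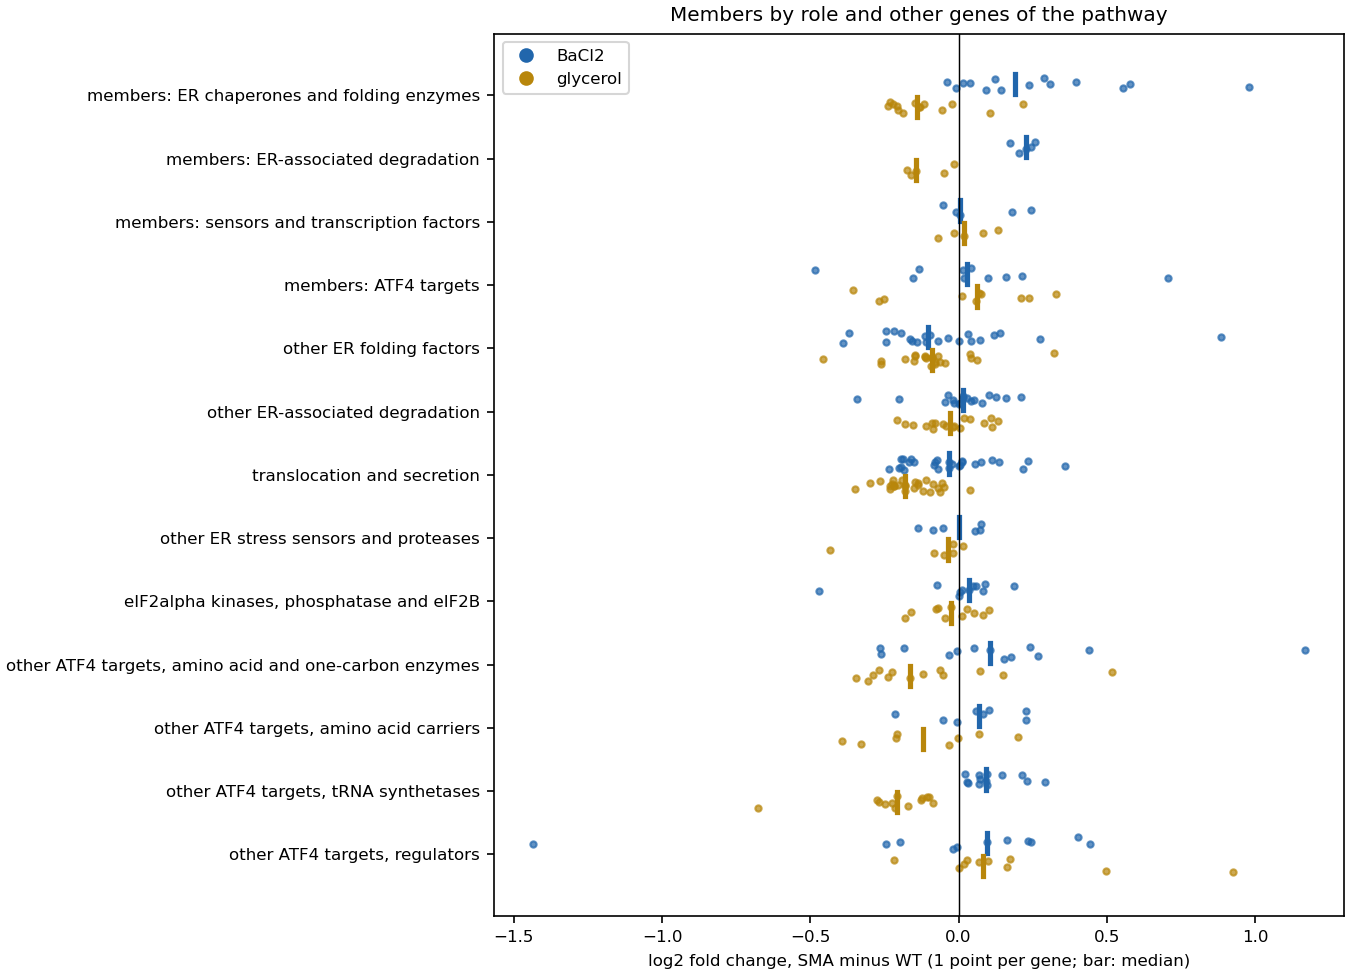
Log2 fold change of SMA against WT for each gene (points) of the member roles and of the other pathway lists after BaCl2 (blue) and glycerol (gold), with the median as a bar. The chaperone members have medians of 0.19 and -0.14 and the tRNA synthetase list medians of 0.09 and -0.21, while the other ER folding factors have negative medians after both injuries.

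Other stress responses were counted for comparison. Of 12 cytosolic heat shock genes and of 10 NRF2 targets, 0 passed after BaCl2 (edgeR) and 0 after glycerol (limma), with medians of 0.01 and 0.08 after BaCl2 and of 0.01 and 0.03 after glycerol. At an unadjusted p under 0.05, 2 heat shock genes were higher and 1 lower after BaCl2, and 1 NRF2 target was higher and 2 lower after glycerol. Of all genes, 9.67% were higher and 9.58% lower at that threshold after BaCl2, and 12.3% and 11.0% after glycerol. In the difference Dnajb1, a cytosolic co-chaperone, was higher (0.42) and Gclc, an enzyme of glutathione synthesis, was lower (-0.38).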

How the data were processed

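Members and gene lists were chosen with earlier results of these data known. The BaCl2 values are read counts, whole numbers as deposited, and the glycerol values are a signal, the authors' normalized counts as deposited, with no depth given. The authors' log2 fold changes, p-values and adjusted p-values, per the file headers, were used only for comparison. Another 6 columns with z-scores were not used. DESeq2, Salmon, fastp and featureCounts are named in the submitters' processing notes without roles, with the aligner, build and strand setting not given in the sources used here. Libraries were poly(A)-selected and directional per the labels' protocols.

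R 4.3.3 was used with DESeq2 1.42.0, edgeR 4.0.16 and limma 3.58.1. BaCl2 counts were filtered with filterByExpr, scaled by TMM and tested with the quasi-likelihood test of edgeR. Glycerol values were tested as log2(value + 1) with limma and a mean-variance trend, so fold changes are on that scale. The difference of effects was tested as a z test with a normal reference on genes fitted in both. P-values were adjusted by Benjamini-Hochberg over all genes, and 0.05 was the threshold. Fold changes are SMA minus WT. The steps were tested on simulated data. Alternatives were DESeq2, limma-voom, other scaling factors, filters and pseudocounts, a replicate block, and leaving out each library or SMA 1 and SMA 2 of BaCl2.

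All 34 members were named, those that passed with their library values. The exceptions were Hsp90b1, Calr, Canx and Pdia4, which passed in the difference and are given after BaCl2 as log2 fold changes only. Of each pathway and stress list, up to 3 passing genes per comparison were named by smallest p. Marker lists are given by counts and sums. The marker genes named, other than Pdgfra, Cd3d, Cd3g, Jchain and the member Xbp1, were chosen after their values were seen. Ddit3 has a second identifier in the BaCl2 table, at 0 in every library, which was not used. No coordinates are given for genes of the tables, whose build may differ from that of the promoter table. Of 33 member windows, 27 had the first 20 bases after the start in a GENCODE transcript of that gene in the same orientation and 0 in reverse.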

Additional observations from a re-analysis of the deposited data

Results flagged for a closer look

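In 3 of 68 groups of 4 glycerol libraries, 1 library lay far from the other 3 (a gap past Dixon's critical share of the range), about the share of 1 in 20 that chance gives. Pdia3 stood at 100166 normalized counts in SMA 2, with the next SMA library at 107938. Sel1l stood at 12960.0 in SMA 3, with the next at 12140.4. Atf4 stood at 26837 in SMA 4, with the next at 23823.

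For 17 members the genotype effect differed between the injuries by the z test (glycerol minus BaCl2, log2). The chaperones were Sdf2l1 (-0.87), Hyou1 (-0.67), Creld2 (-0.64), Manf (-0.53), Dnajc3 (-0.47), Dnajb11 (-0.37), Calr (-0.35), Canx (-0.35), Hsp90b1 (-0.33), Hspa5 (-0.33) and Pdia4 (-0.26). The degradation genes were Sel1l (-0.40), Syvn1 (-0.35) and Edem1 (-0.27), and the ATF4 targets were Asns (-0.52), Psat1 (-0.35) and Ppp1r15a (0.29). Injury and batch cannot be told apart in these values.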

How the results depend on the processing

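No called value changed sign under any alternative run. After BaCl2 the members higher numbered 5 in edgeR, 9 with DESeq2, 11 with no filter on low counts and 0 without SMA 1 and SMA 2 together, where 0 chaperones passed (edgeR, 6 members at an unadjusted p under 0.05) and 1 SMA library was left, assumed to vary as WT does. Over all genes, 863 were called by edgeR, 1687 by DESeq2, 1867 with no filter and 108 without those 2 libraries. Leaving out 1 library gave 0 to 10 members and 0 to 7 chaperones higher. After glycerol, 0 members were higher without a mean-variance trend, where 2 genes in all were called against 411 with it. Leaving out 1 library gave 0 to 2 members higher, 0 to 6 lower, and 0 to 1 chaperones higher and 0 to 3 lower, and from 0 to 1645 genes in all, the highest without SMA 3. In the difference, members higher were 0 with DESeq2 for BaCl2 and 0 to 1 in the leave-one-out fits, and members lower 11 to 18. Without SMA 1 and SMA 2 of BaCl2, 3 members and 2 chaperones were lower. The causes were not tested.

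Replicate numbers did not pair the libraries (correlations of -0.13 to 0.09), and the fit with a replicate block changed no member's call, with 5 members higher after BaCl2, 1 higher after glycerol, and 16 lower and 1 higher in the difference. It called 1144 genes in all after BaCl2 and 257 after glycerol. Depth limits Derl3 (36 to 82 counts) and Chac1 (58 to 121 counts).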
